A study of Mus musculus with 2 samples.

Results

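Mouse genes whose symbol is Zfp and a number are named for the zinc fingers of their products. They were examined here by long-read RNA sequencing in left cerebral cortex, taken at an age of 6 months from adult animals of the strain B6NCrl. The members were the protein-coding genes of this name pattern with at least 20 reads over both libraries, which gave 140 genes of 332 with a read and of 365 in the annotation (GENCODE M21, genome build mm10). Because the read total chose them, their abundance is given as a description without a test. The study held 1 group of 2 libraries, called replicate 1 and replicate 2, with no treatment, allele or transgene in the labels. The tissue samples share 1 donor record, and nothing in the labels ties them to separate animals, so the spread between them may be technical. One label field called the tissue male and another gave the sex as not collected. Of 4 Y-linked genes (Kdm5d, Uty, Ddx3y, Eif2s3y) each had 0 reads in both libraries, where a count of 0 allows up to 3 reads.

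The classical zinc finger is a short fold in which a pair of cysteines and a pair of histidines hold a zinc ion, and arrays of such fingers read DNA, RNA or other proteins. The largest group in mammals joins its fingers to a KRAB box, a domain that recruits the scaffold protein Trim28 and, through it, histone methylation and heterochromatin proteins. KRAB zinc finger genes lie in tandem clusters, many of them bind transposable elements, and most place the whole finger array in a single last exon. A KRAB A box was found by a profile search in the annotated proteins of 70 members and in none of those of the other 70. The number of classical finger motifs (the pattern of 2 cysteines and 2 histidines with their usual spacing) had a median of 11 in KRAB members, with a range of 2 to 23, and of 6 in the others, with a range of 0 to 25.

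The coding sequence of 1 finger is shown for the most abundant member with a motif, for the next such member and for the most abundant KRAB member, with the codons of the 4 zinc-binding residues in capitals. They were read from the GENCODE M21 transcripts, 5′ to 3′.
Zfp706: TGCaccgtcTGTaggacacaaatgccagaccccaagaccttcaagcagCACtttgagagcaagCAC
Zfp771: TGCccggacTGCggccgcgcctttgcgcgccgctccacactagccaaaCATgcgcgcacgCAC
Zfp612: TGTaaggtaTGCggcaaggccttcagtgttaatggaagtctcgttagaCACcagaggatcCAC

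A second set of sequences carries the isoform result described further on. In 3 KRAB genes the short transcript runs past the end of an exon of the full transcript and meets a stop codon at once, before the exon that codes for the fingers. Each pair shows the last 45 coding bases up to that exon end in lower case. The capitals are what follows: in the short transcript the bases up to and including its stop codon, in the full transcript the first 15 bases of the next exon.
Zfp560-202, short, chr9:20352747-20352797, minus strand: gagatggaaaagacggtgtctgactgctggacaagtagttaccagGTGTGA
Zfp560-201, full: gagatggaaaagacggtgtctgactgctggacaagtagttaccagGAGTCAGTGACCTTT
Zfp931-201, short, chr2:178069551-178069599, minus strand: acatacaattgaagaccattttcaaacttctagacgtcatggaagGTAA
Zfp931-202, full: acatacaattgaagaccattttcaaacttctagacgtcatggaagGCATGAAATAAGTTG
Zfp971-201, short, chr2:178031606-178031654, plus strand: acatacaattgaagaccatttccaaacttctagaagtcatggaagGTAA
Zfp971-202, full: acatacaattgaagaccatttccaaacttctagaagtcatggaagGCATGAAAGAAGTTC
In all 3 short transcripts the first bases past the exon end are GT, the letters with which an intron begins. The stop codon is TGA in Zfp560-202 and TAA in the others, with 3 coding bases past the exon end in Zfp560-202 and 1 in Zfp931-201 and Zfp971-201.

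Replicate 1 held 1306424 reads and replicate 2 held 1304133, so that 1 read was worth 0.765 and 0.767 CPM (reads scaled to a library of 1e+06). Members received 4413 reads in replicate 1, or 0.338% of the library (95% Clopper-Pearson interval 0.328 to 0.348%), and 4338 reads or 0.333% (0.323 to 0.343%) in replicate 2. Intervals and limits here cover counting error only. All 140 members had reads in both libraries, but 123 had only 20 to 99 reads in all and 56 had at least 20 in each library. Markers of cortical cells were detected: Snap25 (neurons) at 4132 and 3834 reads and Mbp (oligodendrocytes) at 4171 and 3314. Fewer cells of a type and less RNA per cell cannot be told apart in such tissue.

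The zinc finger genes with the most reads were without a KRAB box. Zfp706, which codes for a protein of 76 residues with 1 finger motif, had 408 and 435 reads in replicates 1 and 2, which is 323 ± 15.03 CPM (SD, n = 2). Zfp365, whose product binds the neuronal scaffold Disc1, had 259 and 195 reads, or 174 ± 34.5 CPM. Zfp771 followed with 189 and 110 reads. The libraries of neighbours in this order did not overlap for Zfp706, Zfp365 and Zfp771, whereas those of Zfp771 and the next gene did.

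Zfp106, an RNA-binding protein needed for the upkeep of motor neurons and muscle, had 153 and 112 reads. Zfp428 had 134 and 110 reads, Zfp637 had 96 and 87, and Zfp622, a factor that matures the large ribosomal subunit in the cytoplasm, had 109 and 49. Zfp664 (80 and 74 reads), Zfp444 (78 and 68) and Zfp148 (57 and 87) completed the 10 most abundant genes. Zfp148 binds GC-rich promoters. These 10 genes held 33.0% of all reads of members, and the median member stood at 14.4 CPM.

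KRAB genes were individually low. Zfp612 led them with 60 and 71 reads (50.2 ± 6.02 CPM, SD, n = 2), followed by Zfp938 (48 and 57 reads), Zfp1 (40 and 52), Zfp68 (43 and 46) and Zfp560 (36 and 42). Both libraries ranked Zfp612 first among them. Only 4 KRAB genes were among the 20 most abundant members, and the median KRAB member stood at 12.4 CPM against 20.7 CPM for members without the box. A KRAB box was also found in 135 of the 192 Zfp genes with reads that fell below the threshold, and in 23 of the 33 without any read. Just inside the threshold, at 20 reads, were Zfp944 (7 and 13 reads), Zfp334 (9 and 11) and Zfp93 (14 and 6). Just outside it, at 19 reads, were genes such as Zfp160 (9 and 10 reads), Zfp606 (8 and 11) and Zfp715 (9 and 10).

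**Figure D1:**
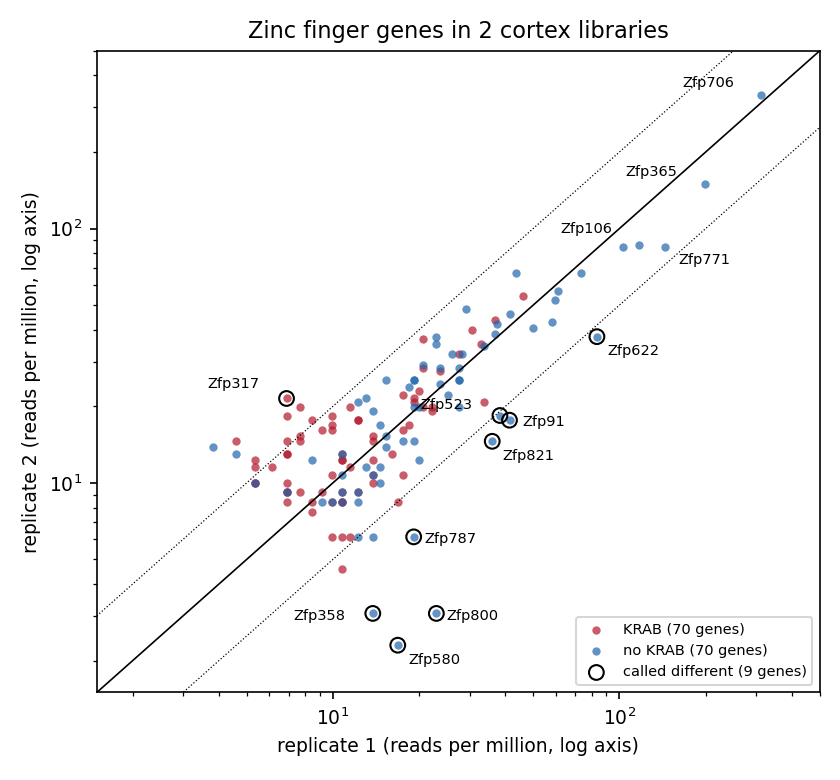
CPM of the 140 members in replicate 1 (x) and replicate 2 (y), both on log axes; red points are KRAB genes, blue points genes without a KRAB box, rings mark the 9 genes called different, the solid line is equality and the dotted lines are 2-fold. Zfp706 stands at the top right, the KRAB genes gather at the low end, and 8 of the 9 ringed genes lie below the line.

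The number of members in clusters depended on the size required. A run was counted where Zfp genes followed each other with gaps of up to 100 kb. Related genes of other names were not counted. Runs of at least 2 Zfp genes held 73 of 140 members. Runs of at least 3 held 54, of which 40 were among the 70 KRAB members, against 162 of the 365 annotated Zfp genes. Chromosome 7 held 33 members of 89 annotated Zfp genes, chromosome 17 held 17 of 41, and chromosome X held 0 of 7. Zfp771, Zfp428 and Zfp444 were the members of chromosome 7 with the most reads. On chromosome 7, from 29768552 to 30169750, a run of 15 genes held 7 members, among them Zfp260, Zfp30 and Zfp84, with 107 reads in replicate 1 and 136 in replicate 2. A run of 15 KRAB genes on chromosome 17, from 21383748 to 22225616, held 5 members with 65 and 79 reads together. In all, 15 members shared at least 200 bases at 97% identity or more with a gene elsewhere, in some cases another Zfp gene and in others an unrelated gene or a pseudogene, so that reads from the shared stretch are uncertain.

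Members were then grouped by known function. In the list of RNA and ribosome factors, 6 of 8 genes were members: beside Zfp106 and Zfp622 these were Zfp638 (38 and 63 reads), which acts in silencing of foreign DNA, Zfp593 (31 and 32), Zfp326 (36 and 26), which couples splicing to elongation, and Zfp346 (11 and 16). Zfp36, which destabilizes mRNAs of the early stress response, had 1 and 0 reads. In the list of promoter and chromatin factors, 10 of 18 were members, led by Zfp148 and by Zfp207 (76 and 56 reads), a kinetochore protein, with Zfp451 (37 and 42), a SUMO ligase, and Zfp91 (54 and 23), a ubiquitin ligase. In the list of neural and glial development, 12 of 13 genes were in the annotation, all but Zfp238, and 5 were members. These were led by Zfp365, with Zfp292 (44 and 45 reads) and Zfp24 (36 and 37), a regulator of myelination. Zfp488, a factor of the oligodendrocyte lineage, had 1 read in each library.

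Of 9 KRAB genes known for guarding imprints or silencing retroelements, 3 were members. Zfp445, which maintains imprints, had 26 and 30 reads, whereas Zfp57, its partner in the embryo, had 1 and 0. Zfp932, a repressor of endogenous retroviruses, had 18 and 19 reads, and Zfp809, which silences murine leukemia virus, had 14 and 11.

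Several partners of the KRAB box had more reads than any KRAB gene. In this assay a read stands for a cDNA molecule, so reads of different genes were compared without dividing by length. Trim28 itself had 118 and 79 reads, and 29 of 30 listed partners had a read. The heterochromatin proteins Cbx3 (272 and 502 reads) and Cbx5 (167 and 246), the chromatin remodellers Atrx (118 and 132) and Chd3 (131 and 67) and the histone-binding subunit Rbbp7 (215 and 244) were among the highest. Mphosph8, of the HUSH complex, had 112 and 103 reads, and the deacetylase Hdac2 had 197 and 60.

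Long reads show which transcript of a gene was made. TALON, the program behind the deposited tables, puts each read into a class: known (the introns of an annotated transcript), ISM (part of an annotated chain of introns), NIC (annotated splice sites newly combined), NNC (at least 1 splice site outside the annotation) or genomic. Known transcripts held 57.4% of the members' reads in replicate 1 and 51.7% in replicate 2, against 71.3% and 66.3% in the other protein-coding genes with at least 20 reads. Abundant genes dominate the latter figure: among other protein-coding genes with 20 to 99 reads the known share was 47.2% and 39.97%, and among members of that range 50.9% and 45.9%. In that range of depth members had the higher known share within each library, and the ranges of the libraries overlapped. They had the lower share of ISM reads, 13.9% and 14.4% against 24.5% and 27.0%. These shares are given as a description over pooled reads.

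KRAB members had a larger share of their reads on new splice patterns. NIC and NNC reads made up 8.17 ± 0.925% and 9.41 ± 0.0854% (SD, n = 2) of their reads. In members without a KRAB box these were 4.42 ± 0.175% and 4.50 ± 0.241%, and in other protein-coding genes of 20 to 99 reads 5.69 ± 0.608% and 5.29 ± 0.144%. The libraries did not overlap between KRAB members and either of the other sets for both classes. The members without a KRAB box include the most abundant genes and were not matched to the KRAB members for depth. Members of 20 to 99 reads, with and without the box together, had 7.74 ± 0.434% NIC and 7.42 ± 0.0864% NNC reads (SD, n = 2). The part of depth in the difference between members with and without the box was not tested. Over all members there were 544 intron chains outside the annotation, of which 93 in 52 genes were found in both libraries. Zfp617, a KRAB gene, gave the chain with the most reads, 11 in replicate 1 and 14 in replicate 2 of its 25 and 28 reads. It joins annotated splice sites by an intron of 3690 bases on chromosome 8, from 71928329 to 71932018. Zfp771 had a chain of 11 and 9 reads with an intron of 363 bases that uses 1 unannotated splice site. Zfp869 had 0 known reads, and 6 and 8 of its 23 and 14 reads lay on 1 new chain.

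**Figure D2:**
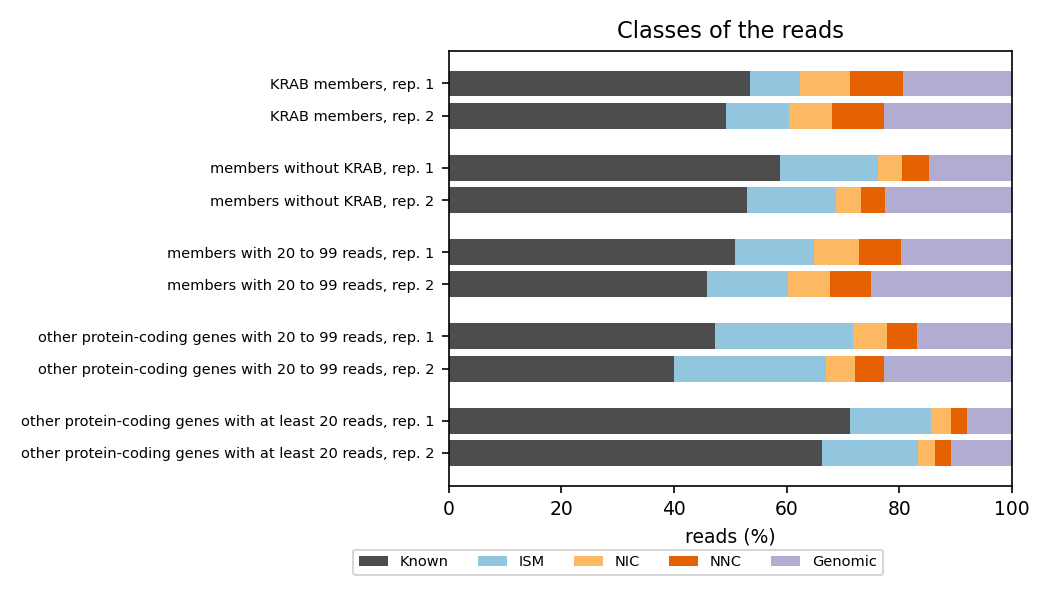
Stacked bars give the percentage of reads in each class (Known, ISM, NIC, NNC, Genomic) for 5 sets of genes, with 1 bar for each replicate. The orange NIC and NNC segments are widest in the KRAB members, and the known segment is longest in the set of all other protein-coding genes.

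Reads without an intron were common, at 20.2% and 27.4% of the members' reads. Some of these were on annotated transcripts of a single exon. Of the others, 853 and 1150 reads, 81.1% and 84.4% lay within the last exon of the gene. In 23 members they were over 50% of all reads. Zfp106 had only 1 known read in each library: 82 and 28 of its reads matched the first introns of an annotated chain and stopped short, and 42 and 57 were genomic. Zfp30 had 27 and 22 reads without an intron among its 29 and 25, and Zfp445 had 16 and 22 among its 26 and 30. Over all members, 34 had fewer than 30% known reads in both libraries, among them also Zfp638, Zfp644, Zfp397 and Zfp131.

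The finger array itself was missing from some transcripts. For the 127 members with at least 2 finger motifs, each spliced model was compared with the positions that code for the fingers in the longest complete annotated protein. Among KRAB members 76.1% of 971 spliced reads in replicate 1 and 74.1% of 1077 in replicate 2 lay on models that hold at least 50% of the finger-coding bases. A further 20.9% (95% Clopper-Pearson interval 18.4 to 23.6%) and 23.4% (20.9 to 26.0%) lay on models that hold none. Members without a KRAB box had 15.3% (13.6 to 17.2%) and 16.2% (14.2 to 18.4%) on such models. A model's span stands for its reads here, since the ends of single reads are not in these tables.

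Such reads were spread unevenly over 47 of 70 KRAB genes and 37 of 57 others. In genes with at least 10 spliced reads in each library the median share without a finger-coding base was 4.35% in 33 KRAB genes and 7.84% in 34 others. It exceeded 50% in 6 KRAB genes and in 5 others, and it was 0 in 11 and 8. Zfp68 (39 and 42 spliced reads), Zfp90 and Zfp426 had none, and Zfp1 had 0 of 35 and 1 of 44. The measure is overlap with finger-coding positions and not the reading frame, so such genes can still have transcripts that code for no finger. Zfp90-206, annotated as a target of nonsense-mediated decay and without a finger motif, held 8 of 16 and 4 of 10 known reads of Zfp90. The highest shares of such reads among KRAB genes were in Zfp560 with 35 of 36 and 42 of 42, Zfp931 with 25 of 26 and 42 of 43, and Zfp970 with 14 of 15 and 10 of 10. Zfp697, without a KRAB box, was near them with 11 of 12 and 11 of 11. The leading transcript of Zfp697 shares 856 bases at 99.4% identity with Gja5, so that reads from this stretch are uncertain. Zfp971, which missed the count of 10 in replicate 1, had 9 of 9 and 23 of 23. Zfp560, Zfp931 and Zfp971 held 38.7% of such reads of KRAB members. Without them the pooled share of KRAB members was 14.9% and 14.96%. Without Zfp467, Zfp106 and Zfp451, the 3 genes of most such reads among the other members, the share there was 13.8% and 11.8%. Leaving out the highest genes lowers both shares by construction.

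**Figure D3:**
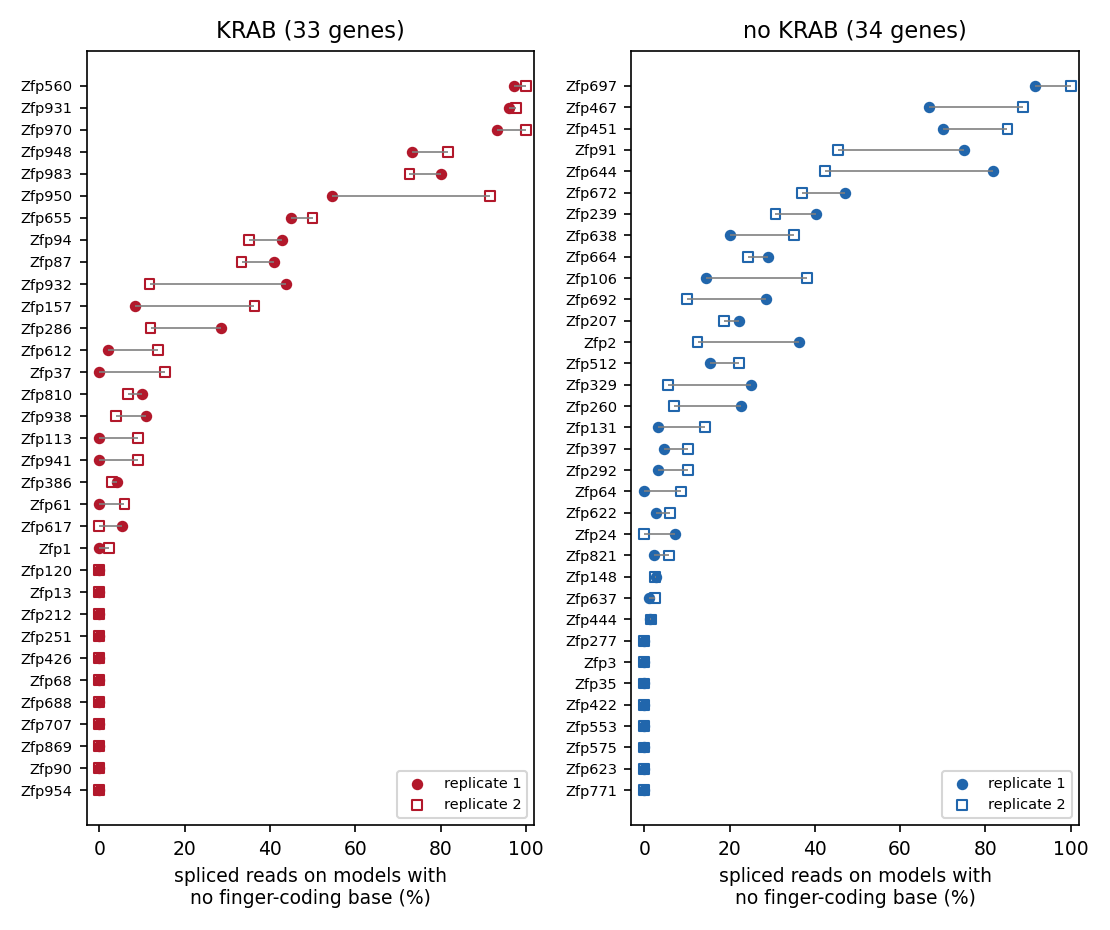
Percentage of spliced reads that lie on models without any finger-coding base (x), for the 33 KRAB genes (left) and 34 other genes (right) with at least 10 spliced reads in each library; filled circles are replicate 1, open squares replicate 2. Zfp560, Zfp931 and Zfp970 among the KRAB genes and Zfp697 among the others lie at the far right in both replicates, and 11 KRAB genes lie at 0.

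In Zfp560 and its like the short transcript is an annotated one. Zfp560-202 took 35 and 40 of the gene's 36 and 42 reads. It has 3 exons and ends at chr9:20352581-20352841, while the full Zfp560-201 has 7 exons and codes for its 15 fingers at chr9:20345136-20349159. Zfp560-201 had 0 reads in both libraries, so that up to 3 reads could have been missed in each. The short coding sequence gives 39 residues, without KRAB box or finger, against 754 in full.

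Zfp931 and Zfp971, neighbours in a run of 3 Zfp genes on chromosome 2, showed the same arrangement. Zfp931-201 had 23 and 38 reads and codes for 64 residues with a KRAB box, and its last exon, chr2:178068490-178069615, ends before the finger exon at chr2:178067695-178068400. Zfp971-201 had 9 and 18 reads and also codes for 64 residues, with a last exon at chr2:178031590-178032287 and the finger exon at chr2:178032801-178034022. Neither full transcript, Zfp931-202 or Zfp971-202, had a read in either library. The introns of all 3 short transcripts are the first introns of the full ones, so their reads hold no intron that leads to the finger exon, as the sequence pairs above show at the exon end. Zfp931, Zfp971 and Zfp970 are among the genes with near copies, which limits how surely a read belongs to one of them.

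**Figure D4:**
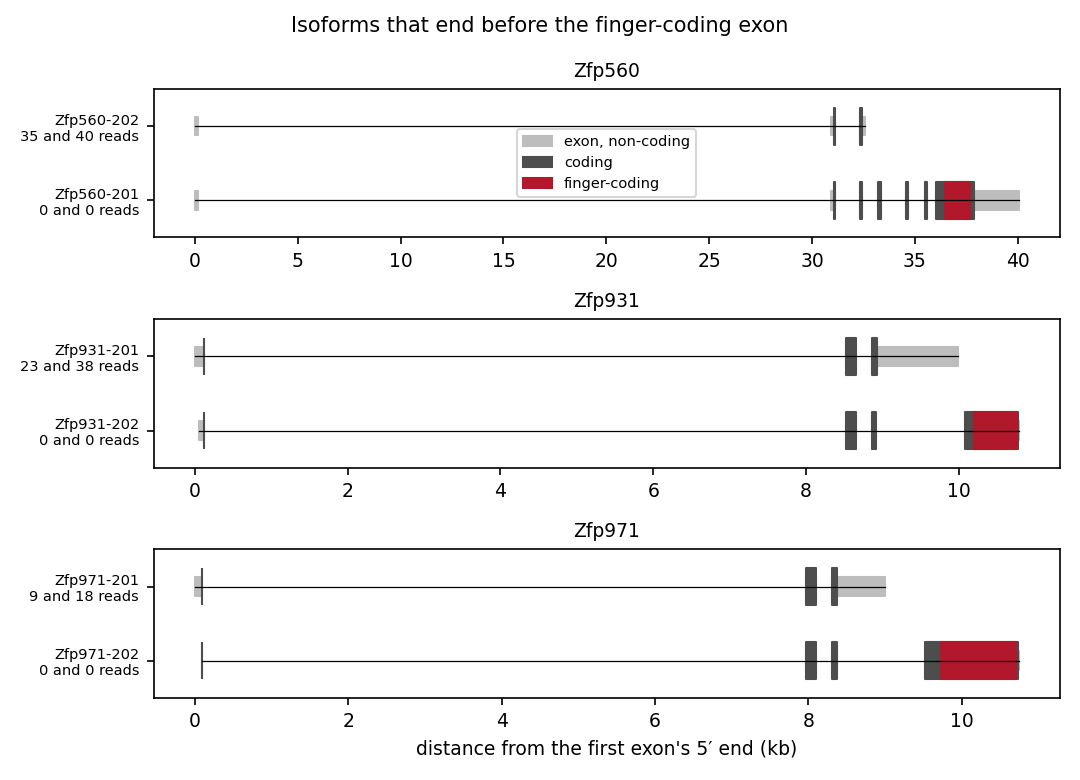
Exons of the short and the full transcript of Zfp560, Zfp931 and Zfp971 drawn to scale by distance from the first exon's start (kb), with non-coding exon parts in grey, coding parts in black and finger-coding parts in red; the labels give the reads in replicates 1 and 2. All reads on these 6 transcripts fall on the short ones, which end before the red blocks.

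Counted over all members with fingers, 34 annotated coding transcripts with a complete coding sequence and no finger motif had reads, 166 in replicate 1 and 215 in replicate 2, in 26 genes. In 11 of them, from 10 genes with 89 and 114 reads, the last exon ran past an exon end of the full transcript. Zfp87, also a KRAB gene, had both forms at similar levels: Zfp87-203, of 51 residues with the KRAB box alone, had 9 and 7 reads, and Zfp87-204, with KRAB box and 15 finger motifs, had 12 and 13. Zfp655 divided its domains, with 9 and 10 reads on Zfp655-202 (6 finger motifs, no KRAB box found) and 7 and 8 on Zfp655-206 (KRAB box, no finger).

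In other genes the forms with reads differed in the KRAB box. Zfp68-203, with KRAB box and 9 finger motifs, had 13 and 23 reads, and Zfp68-202, which keeps the fingers and lacks the box, had 19 and 14. The leading isoform of Zfp68 thus held 34.2% and 54.8% of its known reads, a difference that did not pass Fisher's exact test (adjusted p = 0.810). Zfp612 had 23 and 32 reads on the form with the box and 9 and 9 on the form without it. Zfp938 had 11 and 13 reads on its full coding transcript and 3 and 13 on one annotated as a target of nonsense-mediated decay, which keeps the box and lacks the fingers. Among all known reads of KRAB genes, transcripts with both KRAB box and fingers held 67.9% and 65.6%, those with the KRAB box and no finger 13.1% and 15.8%, and those with fingers alone 7.06% and 6.05%. Coding transcripts with neither, among them Zfp560-202, held 6.01% and 6.05%. Transcripts not annotated as protein coding held 6.01% and 6.46%.

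Some members divided their reads among transcripts in other ways. Zfp637-210 held 39 of 71 and 34 of 69 known reads of Zfp637, while Zfp637-202, which codes for 33 residues without a finger, held 10 and 15. In 7 members the leading known transcript was not protein coding, such as the retained intron form of Zfp688, a KRAB gene (7 of 11 and 5 of 11 known reads), and Zfp697-203 with 7 of 8 and 7 of 7. Zfp120, a KRAB gene, had 12 and 11 reads on its full form. The leading share could be tested between the libraries in 17 members, of which 0 were called by Fisher's exact test with Benjamini-Hochberg adjustment over all genes and 0 had an unadjusted p under 0.05. Over all genes 1.75% of 2572 were called. Among genes of 20 to 99 reads, 0 of 6 members and 0 of 378 other protein-coding genes were called.

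The 2 libraries were compared gene by gene. An exact binomial test, two-sided, set each gene's division of reads against that of the libraries, and p was adjusted over 11838 genes with at least 10 reads. Calls needed a difference of at least 2-fold beside an adjusted p under 0.05. With 1 library on each side, this compares these libraries and not a condition. Among members 8 were called lower in replicate 2 and 1 higher, where 5.44% of all genes were called lower and 1.61% higher. The members' 5.71% and 0.714% are near or below that background.

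The 8 lower genes had no KRAB box. Zfp622 fell from 83.4 to 37.6 CPM (log2 ratio -1.14, adjusted p = 4.56e-05 by the exact binomial test). Zfp800 had 30 and 4 reads (log2 ratio -2.76), 7.49-fold lower with a 95% interval of 2.64 to 29.3 from counting alone, and Zfp580 had 22 and 3 (-2.68). Zfp358 had 18 and 4 reads and Zfp787 had 25 and 8. Zfp91 (54 and 23 reads), Zfp821 (47 and 19) and Zfp523 (50 and 24) differed by 2-fold or a little more, with log2 ratios of -1.21, -1.28 and -1.04. The lowest of these 8 in replicate 2, Zfp580, stood at the limit of 3 reads that a count of 0 allows.

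Zfp317, a KRAB gene, was the 1 higher member, with 9 and 28 reads (log2 ratio 1.59, adjusted p = 0.0170 by the exact binomial test). Of these, 4 and 18 reads were without an intron and lay in the last exon. On spliced models alone it was not called (log2 ratio 0.94, adjusted p = 0.518 by the exact binomial test). Zfp771 (log2 ratio -0.78) and Zfp365 (-0.41) passed the adjusted p but not the limit of 2-fold. The median log2 ratio was 0.22 in KRAB members, -0.12 in the other members and 0.0025 over all genes tested. On known transcripts alone the medians were 0.08 and -0.12, while the median of all genes moved by -0.10.

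GC content moved with these differences. The peak GC of a gene, the highest GC content in any 100 bases of its leading transcript, was 80 to 89% in the 8 lower members and 62% in Zfp317. The leading transcript can be a short one that leaves out much of the gene. For Zfp106 it was Zfp106-203, of 641 bases with 1 read in each library, and for Zfp638 a retained intron form of 904 bases with a peak of 45%. Of the 27 members with a peak of at least 80%, 8 were called lower (29.6%) and the median log2 ratio was -0.38. Of all 2895 tested genes with such a peak 16.4% were called lower, with a median of -0.24, so that the link with peak GC was not confined to members, and whether the members' share differs from it was not tested. Of the 113 under 80%, 0 were called lower by the exact binomial test, 1 was called higher, 11 had an unadjusted p under 0.05 in either direction, and the median was 0.19. Of all 11838 genes tested, 2699 had such an unadjusted p. The cut of 80% equals the lowest peak of the 8 lower members, so none of them could fall under it. Of all tested genes under 80%, 1.86% were called lower and the median was 0.08. Spearman's rho between log2 ratio and peak GC was -0.39 across the 140 members and -0.25 across 11680 genes, which all share the same 2 libraries and are not independent. KRAB members had a median peak of 63.5% and only 3 of 70 reached 80%, against a median of 77.5% and 24 of 70 in the others. The part of GC content in the difference was not tested.

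The extremes are shown by the GC-richest 100 coding bases of the 2 lower members with the highest such value and of Zfp317, printed 5′ to 3′ from the GENCODE M21 transcripts with runs of at least 6 G or C in capitals.
Zfp91, chr19:12795142-12795241, minus strand: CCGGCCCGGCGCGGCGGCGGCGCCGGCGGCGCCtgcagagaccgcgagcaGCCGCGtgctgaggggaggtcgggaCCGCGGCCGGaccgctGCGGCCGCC
Zfp622, chr15:25984654-25984753, plus strand: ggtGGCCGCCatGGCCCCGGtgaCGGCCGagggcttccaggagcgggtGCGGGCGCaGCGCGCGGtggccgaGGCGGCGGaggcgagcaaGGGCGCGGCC
Zfp317, chr9:19646764-19646863, plus strand: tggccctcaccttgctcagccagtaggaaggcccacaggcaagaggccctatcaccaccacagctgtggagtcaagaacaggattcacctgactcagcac
These stretches have 86%, 82% and 58% G or C, and the capitals cover 58, 55 and 0 of the 100 bases. The other lower members had coding peaks from 56% to 80%. Zfp523 (70%) and Zfp821 (66%) were nearer to Zfp317, and Zfp800 (56%) was below it, its peak of 89% lying outside the coding sequence.

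**Figure D5:**
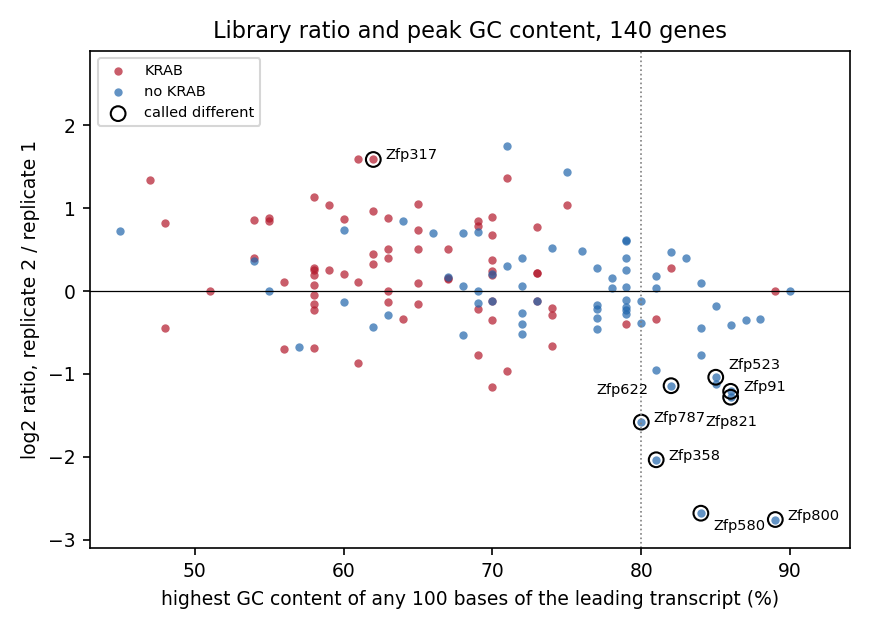
Log2 ratio of replicate 2 over replicate 1 (y) against the highest GC content of any 100 bases of the leading transcript in percent (x), for the 140 members; red points are KRAB genes, blue points the others, rings mark the 9 called genes, and the dotted line marks 80%. All 8 lower genes lie at or to the right of the dotted line, which stands at their lowest value, and Zfp317 lies at 62%.

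Other measures also moved between the libraries. As background for the counts below, 2699 of all 11838 genes tested had an unadjusted p under 0.05 by the exact binomial test. Of 7 neuron markers 1 was called lower in replicate 2, Slc17a7 of excitatory neurons (130 and 36 reads, log2 ratio -1.84). Of that list 6 had an unadjusted p under 0.05 in either direction by the exact binomial test, of which Gad2 of inhibitory neurons (72 and 142 reads, log2 ratio 0.98, under the limit of 2-fold) and Syt1 (log2 ratio 0.15) had higher values in replicate 2, and its sum was 5221 and 4769 CPM. By the exact binomial test none of 6 astrocyte, 6 oligodendrocyte, 5 microglia and 3 endothelial markers was called, where 5, 4, 0 and 0 had an unadjusted p under 0.05, with sums of 2811 and 2997 CPM, 4991 and 4598 CPM, 430 and 473 CPM and 173 and 204 CPM. By the same test none of 3 oligodendrocyte precursor, 1 choroid plexus and 4 cortical layer markers tested was called, where 1, 1 and 1 had an unadjusted p under 0.05. The sums of these lists, with 3 choroid plexus genes listed, were 131.7 and 85.9 CPM, 59.7 and 36.0 CPM and 229.6 and 189.4 CPM. The part of the cell type markers in the differences of the members was not tested. Among the lists of zinc finger genes, 1 of 6 tested RNA and ribosome factors (Zfp622) and 1 of 13 promoter and chromatin factors (Zfp91) were called lower by the exact binomial test. No call fell on the 8 tested neural and glial factors, of which 1 had an unadjusted p under 0.05, or on the 3 tested imprint and retroelement factors, of which 0 had. Of 27 tested KRAB partners 1 was called, Hdac2, which was lower (log2 ratio -1.70). Cbx3 passed the adjusted p with a log2 ratio of 0.89, under the limit of 2-fold.

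The known share of a gene's reads could be compared in 56 members, of which 2 were called by Fisher's exact test, against 8.76% of 6644 genes. The latter include many genes with more reads. Among genes of 20 to 99 reads the same test called 1 of 39 members and 90 of 2321 other protein-coding genes. The known reads of Zfp365 were 121 of 259 and 43 of 195, or 46.7% and 22.1% (adjusted p = 2.09e-06 by Fisher's exact test). Its reads without an intron in the last exon numbered 92 and 125, of which 86 and 109 were on a single model in each library. Zfp281, which binds GC-rich promoters, had 22 of 36 and 7 of 33 known reads, or 61.1% and 21.2% (adjusted p = 0.0194 by Fisher's exact test). Its reads without an intron in the last exon numbered 14 and 26. Counted on spliced models alone, Zfp365 was not called (adjusted p = 0.569 by Fisher's exact test), and Zfp281 had too few reads to be tested.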

How the data were processed

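The deposited tables hold counts, that is whole reads per transcript model and library with no normalization, and, per the file headers, other values, namely each model's exon number and length. The deposited annotations hold positions on mm10 with GENCODE M21 features and models added by TALON. The aligner, not given in the sources used here, is left unnamed. Model counts were summed per gene and scaled to CPM by the library totals, 1306424 and 1304133. Genes with at least 10 reads were compared by exact binomial tests with 0.5 counts added in the log2 ratio, and shares by Fisher's exact test with at least 20 reads in each library, both adjusted by Benjamini and Hochberg's method over all genes (scipy 1.17.1). edgeR 4.0.16 and DESeq2 1.42.0 supplied scaling factors for alternatives only. Coding sequences came from GENCODE M21, KRAB boxes from HMMER 3.4 (E up to 0.001, profile built from 179 segments) and near copies from BLAST 2.17.0. The tests were checked on simulated data with set changes and counting noise as the only spread. That check does not cover other variation between libraries. The members, gene lists, tests and naming rule (most abundant, called, and isoform-divided members) were chosen with earlier results of these data known, and 2 alternatives on finger-coding models were added after seeing the data. Zfp560, Zfp931 and Zfp971 and others named for finger-less reads, single-exon reads or new chains were chosen after their values were seen. Overlapping genes on either strand were not resolved: 27 members overlap a gene on the same strand and 50 on the other.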

Additional observations from a re-analysis of the deposited data

Results flagged for a closer look

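Zfp125, a gene of the same name pattern annotated as a transcribed unprocessed pseudogene and so outside the 140 members, had 21 reads in replicate 1 and 22 in replicate 2, 43 in all, above the 3 reads that a count of 0 allows.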

How the results depend on the processing

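The count of 8 members lower in replicate 2 stayed within 6 to 10 under the 8 alternatives run, and all 8 genes were among those called with TMM factors, DESeq2 size factors, at least 20 reads, spliced models alone, no size limit and 1 count added. Without a filter on low counts Zfp787 and Zfp358 kept their log2 ratios of -1.58 and -2.04 but had adjusted p of 0.0596 and 0.0580 by the exact binomial test. On known transcripts alone 10 members were called lower. They were 6 of the 8 genes together with Zfp281, Zfp35, Zfp365 and Zfp970. The 1 higher member there was Zfp943 and not Zfp317. In that setting Zfp523 had a log2 ratio of -1.52 with an adjusted p of 0.0680 by the exact binomial test, and Zfp91 had too few reads to be tested. The count of higher members was 3 with at least 20 reads (Zfp317, Zfp652 and Zfp971) and 0 on models of 2 or more exons. Members with a changed known share numbered 0 on models of 2 or more exons, where 43 rather than 56 members could be tested, and 5 with at least 10 reads in each library, and the cause was not tested. The summed level of the members, 3352 CPM, was 3940 CPM against reads of annotated protein-coding nuclear genes as the total and 1828 CPM on known transcripts alone, because fewer reads enter the total or the sum; it was 3326 CPM without replicate 1 and 3378 CPM without replicate 2. The share of spliced KRAB reads on models without finger-coding bases, 22.2% over both libraries, was 14.9% without the 3 genes of most such reads and 19.5% on known transcripts. With a library left out, the comparisons have no value. No paired analysis was possible because 1 group is all the labels give. Depth limits single members, since 123 of 140 had under 100 reads.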
